A study of Mus musculus with 14 samples.

Results

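The RUNX family is described here with its partner Cbfb across haematopoietic stem cells (HSCs), which sustain blood formation from the marrow, sorted by their calcium level. The 4 genes Runx1, Runx2, Runx3 and Cbfb were found by name and account for 5 of the 48714 gene labels joined across the files, because Runx3 is listed under 2 labels, Runx3_1 and Runx3_2. The family was selected on earlier results of the calcium contrast in these data, in which Runx3_1 was among the labels lower in calcium-high cells and Runx1 hardly differed, so differences of the members by calcium level are given as a description, with no p-value. The HSCs came from C57BL/6 bone marrow and formed a calcium-high population ([Ca2+]high, 7 libraries) and a calcium-low population ([Ca2+]low, 7 libraries), each library made from the total RNA of 100 sorted cells. The labels state no genotype change, treatment or age, do not describe the calcium or HSC gates, and do not say whether libraries came from separate mice. The spread between libraries may therefore be technical. According to its title the study concerns dormant and active HSCs and the part of cytoplasmic calcium in dormancy.

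RUNX proteins are transcription factors that bind DNA through the Runt domain. Cbfb encodes core-binding factor beta, which does not contact DNA itself and raises the affinity and stability of the RUNX proteins it binds. Runx1 is needed for HSCs to form in the embryo and, in adult marrow, for lymphoid and megakaryocytic development. Runx2 is best known as the regulator of bone-forming osteoblasts. Runx3 acts in cytotoxic T cells, natural killer cells and sensory neurons. RUNX genes are transcribed from a distal and a proximal start site.

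In the GRCm38 annotation Runx1 lies on the minus strand of chromosome 16 (92601466 to 92826149) and Runx2 on the minus strand of chromosome 17 (44495987 to 44814797). Runx3 lies on the plus strand of chromosome 4 (135120652 to 135177990) and Cbfb on the plus strand of chromosome 8 (105170674 to 105217989). The start-site windows of the 3 RUNX genes share a feature that the choice of the family did not use. The longest stretch that all 3 hold, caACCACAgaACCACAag (18 bases), has the core recognition sequence of RUNX proteins in tandem. That core is ACCACA, which reads TGTGGT on the other strand. The 30-base excerpts below are from RefSeq (GRCm38.p6), are shown because they carry this stretch in each RUNX gene, and have the RUNX core in capitals.
Runx1 distal, chr16:92826026-92826055, minus strand: tcataaacaACCACAgaACCACAagttggg
Runx2, chr17:44814584-44814613, minus strand: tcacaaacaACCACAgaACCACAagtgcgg
Runx3 distal, chr4:135120502-135120531, plus strand: ggtccctcaACCACAgaACCACAaggccag

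Each window of 300 bases ran from 250 bases before to 50 bases from the RefSeq start on, and both strands were searched. The 18-base stretch was found in 4 of 32851 windows of all genes (0.0122%). These were the Runx1 distal, Runx2 and Runx3 distal windows, and that of Gm16225, which overlaps the Runx3 distal window by 232 bases. The stretch was defined as the longest that all of these RUNX windows hold, so its presence in them was given. The Gm16225 hit lies in the bases shared with the Runx3 distal window. The percentage is therefore a description and tests nothing. A single core, TGTGGT or ACCACA, was present in 16.8% of all windows. The stretch began at base 27 of the Runx1 transcript and base 22 of the Runx2 transcript, and 136 bases before the Runx3 distal start. The windows of the proximal Runx1 and Runx3 starts and of Cbfb had 0 cores, which says only that these letters are not in those windows. The proximal Runx3 window held 45 CG dinucleotides, the distal one 8. The proximal Runx1 window held 35 and the distal one 2. The 250 bases upstream of the distal Runx3 start are shown because Runx3 differed most between the calcium groups. The capitals again mark the core.
Runx3 distal, chr4:135120395-135120644, plus strand: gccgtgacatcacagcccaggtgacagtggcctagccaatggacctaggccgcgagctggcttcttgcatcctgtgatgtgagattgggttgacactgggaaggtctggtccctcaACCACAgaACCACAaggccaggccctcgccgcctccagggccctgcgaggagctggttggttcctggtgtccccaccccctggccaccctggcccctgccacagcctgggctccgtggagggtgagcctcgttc

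**Figure D1:**
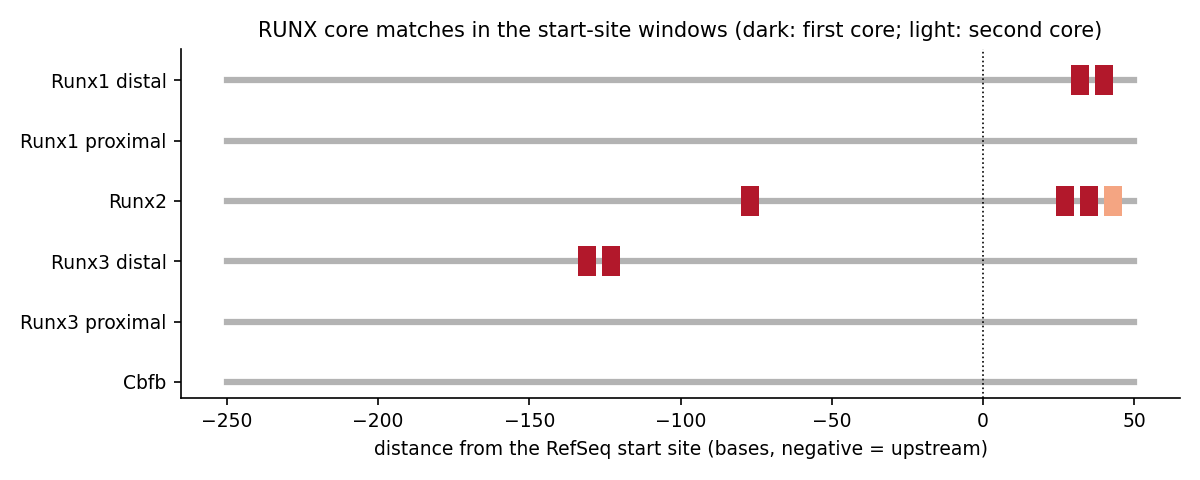
Position of RUNX core matches (boxes) in the RefSeq start-site windows of the members, as distance in bases from the start site. Dark boxes are TGTGGT or ACCACA and the light box in Runx2 is ACCGCA or TGCGGT; the tandem pair lies after the start in Runx1 and Runx2 and before it in Runx3.

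The values are RPKM, in which the authors divided the reads of a label by the length of its gene model and by the library total. They are per length, so genes can be set side by side as far as the model lengths hold. The library totals behind the RPKM values were 14.3 to 37.2 M reads, recovered from the steps in the values. Runx1 rested on 1190 to 4686 reads per library, Runx2 on 773 to 3466 and Cbfb on 510 to 1475. Runx3_1 had 123 to 1035 reads and Runx3_2 had 13 to 446. The recovered gene models were 7378 bases for Runx1 and 8396 for Runx2, where the longest annotated transcripts have 5861 and 6463 bases. For Cbfb the model was 2914 bases, against 2891. Levels of different genes rest on these lengths, which the tests of order below do not cover. The gene models behind the Runx3 labels were 4173 bases (Runx3_1) and 3891 bases (Runx3_2) long. The sources used here do not say which annotated transcript each suffix marks or whether a read could count for both, so the labels are kept apart and are not independent measures. The counting strand was not given either. The antisense genes Runx2os1 and Gm26626 share 519 of 8837 exon bases with Runx2 and 106 of 12025 with Runx1, and their reads cannot be told apart there. All 5 labels passed the filter of a mean of 1 RPKM or more, as did 9921 labels in all. Recovered reads in labels that passed were 3.40 to 9.72 M per library, a varying share of the total. In replicate 1 they were 4.12 of 16.7 M in the calcium-high and 4.51 of 14.5 M in the calcium-low library. In replicate 6 they were 9.72 of 35.2 M in the calcium-high and 8.46 of 33.8 M in the calcium-low library. What part this share had in member differences within replicates was not tested.

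The sorted cells carried HSC transcripts in every library. All 12 listed HSC markers passed the filter, among them the stem cell factor receptor Kit and the transcription factor Hlf. Kit was at 67.2 ± 4.97 RPKM in the calcium-high and 67.5 ± 6.49 RPKM in the calcium-low libraries (SD, n = 7 each). Most listed HSC markers were nevertheless at a higher mean in calcium-high libraries: 10 of 12 were, with a median log2 difference of 0.47 against -0.03 over all tested labels. Of the 12, limma called 0 without the replicate number as a block, 3 higher with it and 9 higher in replicates 4 to 7 alone. Over all tested labels, 0.484% were called higher with the block and 6.36% in replicates 4 to 7 alone. Libraries 1 to 3 of both groups were shallower (14.3 to 23.9 M reads) than libraries 4 to 7 (29.2 to 37.2 M reads). The labels do not say that they were prepared apart. Calcium-low replicate 3 stood apart in the neutrophil and erythroid markers. The summed level of the neutrophil markers was 759 RPKM there, against 9.80 to 97.7 RPKM in calcium-high and 14.4 to 44.4 RPKM in the remaining calcium-low ones. Erythroid markers summed to 335 RPKM there, against 115 to 228 RPKM in calcium-high and 130 to 172 RPKM in the remaining calcium-low ones.

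Runx1 and Cbfb were the most abundant members, followed by Runx2, Runx3_1 and Runx3_2. Over all 14 libraries Runx1 averaged 14.5 ± 2.64 RPKM and Cbfb 13.4 ± 3.54 RPKM. Runx2 averaged 8.43 ± 1.85 RPKM, Runx3_1 4.37 ± 1.73 RPKM and Runx3_2 1.51 ± 0.939 RPKM (SD, n = 14). Levels of neighbours in this order were compared within libraries by a two-sided permutation test on log2(RPKM + 1), adjusted over the 4 comparisons. Cbfb exceeded Runx2, Runx2 exceeded Runx3_1, and Runx3_1 exceeded Runx3_2 in all 14 libraries, by 0.60, 0.86 and 1.13 on the log2 scale (permutation adjusted p = 0.000163 each, from the smallest p of 0.000122 that 14 libraries allow). Runx1 and Cbfb did not differ beyond their spread: Runx1 was the higher in 9 of 14 libraries, by 0.12 ± 0.38 on the log2 scale (SD; permutation adjusted p = 0.272). In replicates 4 to 7 alone Runx1 was above Cbfb by 0.37 (permutation adjusted p = 0.00781), and without calcium-low replicate 3 by 0.19 (permutation adjusted p = 0.0427). In replicates 1 to 3 it was below Cbfb by a log2 difference of -0.23 (permutation adjusted p = 0.156). These tests take libraries as units and the gene model lengths as given. Runx3_1 and Runx3_2 are labels of the same gene that may share reads, so the step between them compares labels and not genes. With the mean of each replicate number as the unit, the 3 lower steps of the order kept a permutation adjusted p of 0.0208 over the 7 numbers, and Runx1 over Cbfb had 0.359. For replicates 4 to 7 it then had a permutation p of 0.125, the smallest that 4 numbers allow, and without replicate 3 a permutation adjusted p of 0.219. Runx2 was thus read at an RPKM above that of either Runx3 label in cells whose osteolineage markers were near 0. All 10 listed stromal and osteolineage markers fell below a mean of 1 RPKM, and their summed level was 0.298 to 1.36 RPKM in calcium-high and 0.419 to 0.962 RPKM in calcium-low libraries.

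Runx3 was the member that differed most by calcium level. Calcium-high libraries had Runx3_1 at 1.76 to 4.02 RPKM with a median of 3.08, and calcium-low libraries at 4.14 to 7.33 RPKM with a median of 5.73. The ranges did not overlap, although the highest calcium-high library (replicate 3) and the lowest calcium-low library (replicate 2) were close. Such a separation with calcium-high below calcium-low was seen in 11 of 9921 tested labels (0.111%), and nothing is read from it here because the choice of the family used this contrast. The means were 3.01 ± 0.825 RPKM in the calcium-high and 5.74 ± 1.22 RPKM in the calcium-low libraries (SD, n = 7 each), a ratio of 0.525. On log2(RPKM + 1) the difference was -0.76 ± 0.15 (SE). In such sorted pools, fewer cells with a transcript and less transcript per cell cannot be told apart.

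By replicate number Runx3_1 was lower in the calcium-high library of all 7 pairs, by an uneven amount. In pair 1 it was at 1.76 RPKM in the calcium-high and 6.72 RPKM in the calcium-low library. In pair 2 the values were 2.22 RPKM in the calcium-high and 4.14 RPKM in the calcium-low libraries. Pair 3 had nearly equal values, 4.02 RPKM in the calcium-high and 4.19 RPKM in the calcium-low libraries, a ratio of 0.961. The calcium-high library was at 3.89 RPKM against 5.64 RPKM in calcium-low in pair 4, and at 3.08 RPKM against 6.40 RPKM in pair 5. It was at 2.83 RPKM against 7.33 RPKM in pair 6, and at 3.26 RPKM against 5.73 RPKM in pair 7. The largest gap was in pair 1 (ratio 0.262) and the next in pair 6 (0.387). A decrease in all 7 pairs was seen in 300 of 9921 tested labels (3.02%).

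The second Runx3 label showed the same direction at a lower level and with more spread. Runx3_2 was at 0.234 to 2.31 RPKM with a median of 1.08 in calcium-high libraries, and at 0.748 to 3.39 RPKM with a median of 2.16 in calcium-low libraries. The ranges overlapped. It was lower in the calcium-high library of all 7 pairs, but by little in pair 3 (0.731 RPKM against 0.748 RPKM in calcium-low) and in pair 5 (2.31 RPKM against 2.39 RPKM in calcium-low). In pair 5 Runx3_1 was at a ratio of 0.481, so the labels did not move together there. The difference of Runx3_2 was -0.63 ± 0.23 on log2(RPKM + 1) (SE). The calcium-high libraries of replicates 1 and 2 held 16 and 13 reads of this label, so their values are coarse.

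Runx2 was also lower in calcium-high libraries, by less. It was at 6.45 to 8.66 RPKM with a median of 7.00 in calcium-high libraries, and at 5.92 to 11.6 RPKM with a median of 9.62 in calcium-low libraries. The groups overlapped through calcium-low replicate 3, which was the lowest of all 14 libraries; the other 6 calcium-low libraries were at 8.50 RPKM or more. The means were 7.32 ± 0.865 RPKM in the calcium-high and 9.55 ± 1.94 RPKM in the calcium-low libraries (SD, n = 7 each), a log2(RPKM + 1) difference of -0.32 ± 0.13 (SE). Runx2 was lower in 6 of 7 pairs and higher in pair 3 (6.64 RPKM in the calcium-high and 5.92 RPKM in the calcium-low libraries).

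Runx1 showed no such shift. It was at 10.3 to 18.0 RPKM with a median of 14.04 in calcium-high libraries, and at 10.96 to 17.5 RPKM with a median of 15.5 in calcium-low libraries. The groups overlapped nearly completely. The log2(RPKM + 1) difference was -0.06 ± 0.14 (SE; 95% interval -0.36 to 0.24). Runx1 was higher in the calcium-high library of 6 of 7 pairs, by ratios of 1.01 to 1.12, and lower in pair 1 (10.3 RPKM against 17.5 RPKM in calcium-low). The sign of its mean difference rested on that pair: without pair 1, in the fit with the replicate number as a block, it was 0.05. Runx1 varied more with the replicate number than with calcium. In calcium-high libraries it averaged 11.5 ± 1.28 RPKM in replicates 1 to 3 and 16.3 ± 1.79 RPKM in replicates 4 to 7. Calcium-low libraries averaged 13.5 ± 3.52 and 15.6 ± 1.31 RPKM in the same sets (SD, n = 3 and 4).

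Cbfb was lower in calcium-high libraries, with a size that depended on the replicates. It was at 10.1 to 13.2 RPKM with a median of 11.4 in calcium-high libraries, and at 11.9 to 21.6 RPKM with a median of 13.6 in calcium-low libraries. Calcium-low replicates 1 and 3 lay far above the rest, at 21.0 and 21.6 RPKM. The ranges otherwise overlapped. The difference was -0.37 ± 0.14 on log2(RPKM + 1) (SE), with Cbfb lower in 6 of 7 pairs and slightly higher in pair 6. A decrease in 6 or more of the 7 pairs was seen in 12.4% of tested labels. In replicates 1 to 3 the difference was -0.66 ± 0.19, and in replicates 4 to 7 it was -0.15 ± 0.09.

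**Figure D2:**
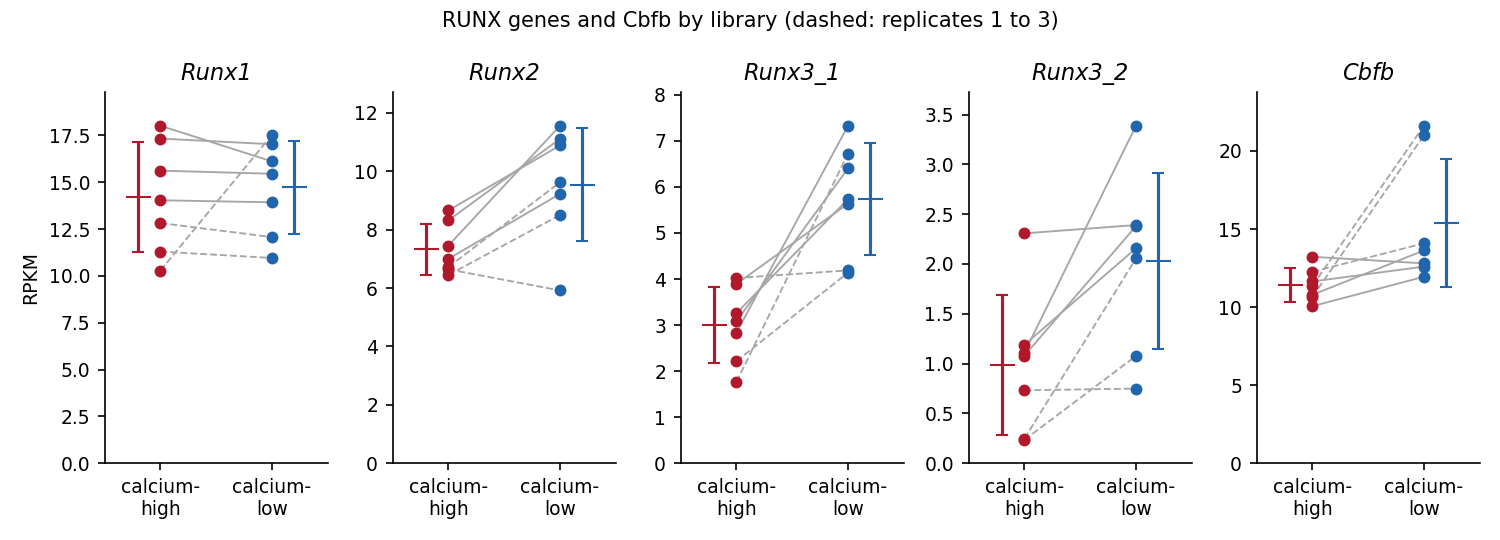
RPKM of each member in the calcium-high (left, red) and calcium-low (right, blue) libraries, 7 each; grey lines join libraries with the same replicate number, dashed for replicates 1 to 3, and side bars are mean ± SD. Runx3_1 is lower on the left in all 7 pairs without overlap of the groups, while the Runx1 lines are nearly flat except for pair 1.

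The median of all tested labels also differed between these sets of replicates, at -0.20 on log2(RPKM + 1) in replicates 1 to 3 and 0.11 in replicates 4 to 7. Relative to that median, Runx3_1 was at -0.54 in replicates 1 to 3 and -0.88 in replicates 4 to 7, and Runx3_2 at -0.49 and -0.69. Runx2 was at -0.03 in replicates 1 to 3, close to the median label, and at -0.51 in replicates 4 to 7. Before that subtraction Runx2 was at -0.46 in pair 1, -0.35 in pair 2 and 0.14 in pair 3. Runx1 was within 0.06 of the median in both sets (0.00 and -0.06), and Cbfb was at -0.46 and -0.26. Differences between the sets were not tested.

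**Figure D3:**
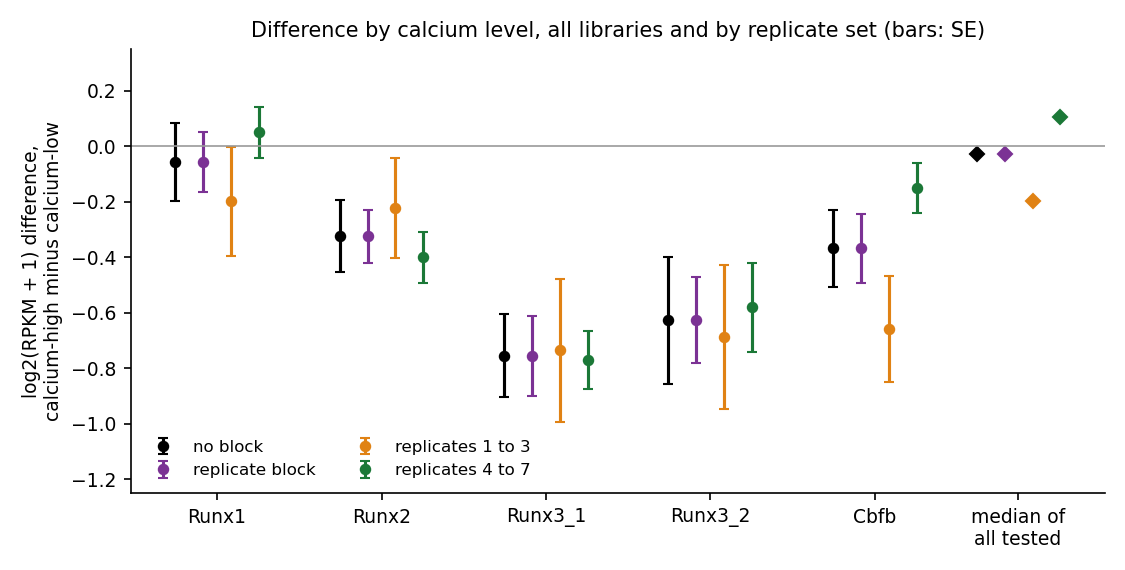
Difference in log2(RPKM + 1), calcium-high minus calcium-low, of each member (points, bars ± SE) in all libraries without and with the replicate block and in each set of replicates, beside the median of all tested labels (diamonds). Both Runx3 labels lie below the median in each fit, and the Runx1 points follow it.

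Over all tested labels, limma on log2(RPKM + 1) with Benjamini-Hochberg adjustment called 0 of 9921 (0%) without the replicate number as a block, with 669 at an unadjusted p under 0.05. DESeq2 and edgeR were not run, and limma-voom on the recovered reads called 9. With the block limma called 91 (0.917%), of which 43 were lower in calcium-high (0.433%). The remaining 48 were higher (0.484%). Of the 5 member labels, 0 were called without the block and 1, Runx3_1, with it. That call was kept in 1 of the 7 fits with the block that left out a replicate number, the one without replicate 3. That fit called 302 labels, Runx2 and Runx3_2 among them, and the remaining fits of this kind called 0 to 12. Without the block, Runx3_1 was called when calcium-high replicate 3 (101 labels called) or calcium-low replicate 3 (20 labels called) was left out. After median-of-ratios scaling, the fit with the block called Runx3_1, Runx3_2 and Cbfb. That fit, chosen after the data were seen, called 328 of 9921 labels, of which 126 were lower. In replicates 1 to 3 alone 0 of the 9921 were called, with 1151 at an unadjusted p under 0.05. In replicates 4 to 7 alone Runx2, Runx3_1 and Runx3_2 were among 808 labels called (8.14%), of which 177 were lower (1.78%). Since the choice of the family used this contrast, these counts are given as a description. Without calcium-low replicate 3, the library high in neutrophil and erythroid markers, Runx3_1 was at -0.81, Runx3_2 at -0.75, Runx2 at -0.42, Cbfb at -0.28 and Runx1 at -0.10 on log2(RPKM + 1). The Runx3 and Runx2 differences were thus larger without it, and those of Cbfb smaller.

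The balance within the family shifted toward Runx1 in calcium-high libraries. Taking Runx3_1 for Runx3, Runx1 made up 54.6% to 64.7% of the summed RUNX RPKM in calcium-high and 43.7% to 54.4% in calcium-low libraries. The ranges did not overlap, by a narrow margin, and nothing is read from it because the choice of the family used this contrast. The means were 57.6% ± 3.38 in calcium-high and 49.2% ± 3.57 in calcium-low libraries (SD, n = 7 each), and the share was higher in the calcium-high library of all 7 pairs. Runx3 made up 12.2% ± 2.53 in calcium-high and 19.0% ± 1.92 in calcium-low libraries, lower in all 7 pairs. Its ranges met at calcium-high replicate 3 (17.1%), above the lowest calcium-low library (16.8%). The Runx2 share was 30.2% ± 3.34 in calcium-high and 31.8% ± 3.98 in calcium-low libraries, a difference smaller than the spread. Runx1 was 3.19 to 6.36 times as abundant as Runx3 in calcium-high and 2.18 to 3.02 times in calcium-low libraries. These are the same measurements seen as shares: since Runx1 hardly differed, the shift in its share follows the lower Runx3 and Runx2. In replicates 1 to 3 alone the mean gain in the Runx1 share was 4.45 percentage points, against 8.43 over all libraries.

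Summed RUNX transcript was 24.5 ± 4.12 RPKM in the calcium-high and 30.01 ± 4.93 RPKM in the calcium-low libraries (SD, n = 7 each), lower in 6 of 7 pairs. Cbfb per summed RUNX was 0.476 ± 0.0873 in calcium-high and 0.536 ± 0.219 in calcium-low libraries, higher in 4 pairs and lower in 3. That ratio reached 0.975 in calcium-low replicate 3 and was 0.374 to 0.620 in the other calcium-low libraries.

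**Figure D4:**
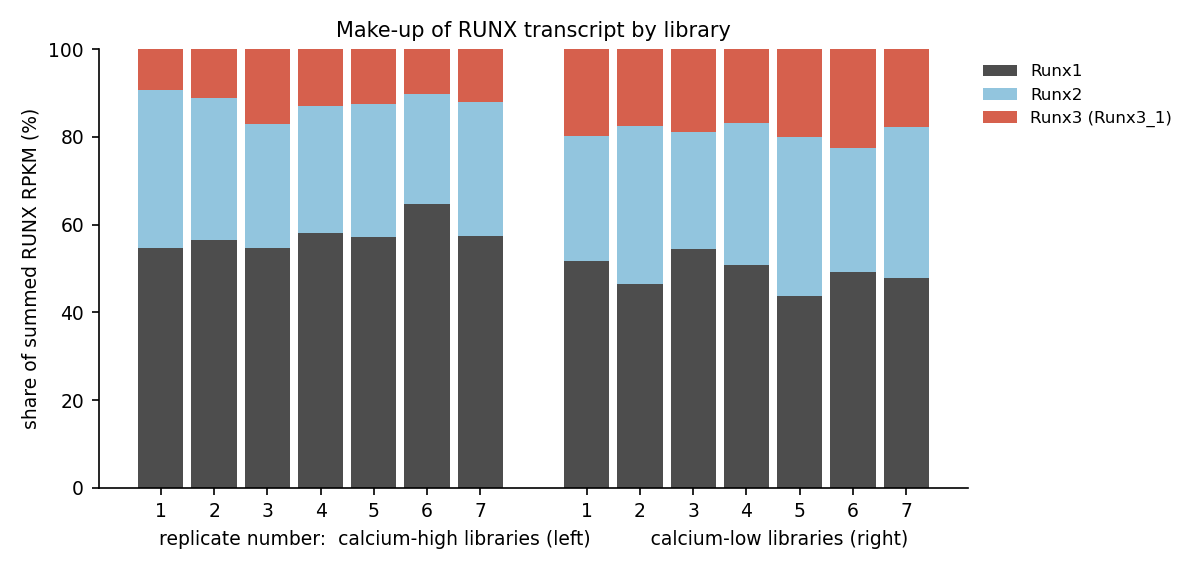
Share (%) of Runx1, Runx2 and Runx3 (label Runx3_1) in their summed RPKM in each library, calcium-high libraries on the left and calcium-low libraries on the right, by replicate number. Runx1 holds 54.6% to 64.7% of each calcium-high bar and 43.7% to 54.4% of each calcium-low bar.

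After subtracting each group's mean, members varied together to different degrees over the 14 libraries, which differ in depth between replicates 1 to 3 and 4 to 7. Runx3_1 and Runx3_2 had a Pearson r of 0.75 and a Spearman rho of 0.56. Runx1 had r = 0.72 with Runx3_1 and r = 0.56 with Runx2. Cbfb had r = 0.03 with Runx1 and r = -0.63 with Runx2. Among all other tested labels the 5 most like Runx3_1 were Pitpnc1 (a phosphatidylinositol transfer protein, r = 0.91), Sema4d (a semaphorin of lymphocytes, r = 0.89), Mdga1 (r = 0.84), Ccdc88c (r = 0.83) and Nkg7 (r = 0.83). Nkg7 encodes a granule protein of cytotoxic lymphocytes. The 5 most like Runx1 were Vac14, Pcbp1, Nlk, Timmdc1 and Pold4_1, with r of 0.90 to 0.92. Those most like Runx2 were Ggt5, Flot1_1, Aldoa, Msi2_1 and Ramp1 (0.91 to 0.93), and those most like Cbfb were Sec11a, Isoc1, Dr1, Cggbp1 and 2010107E04Rik (0.91 to 0.95). The members' own labels were left out of this ranking.

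Markers of T cells, natural killer and innate lymphoid cells, which carry Runx3, were for the most part absent. Of 17 labels 14 were below a mean of 1 RPKM, and Cd3e, Cd3g, Ncr1 and Gzma were at 0 in all libraries. The summed level was 10.004 to 25.7 RPKM in calcium-high and 15.4 to 37.6 RPKM in calcium-low libraries. Nkg7, the most abundant of them on average, was at 9.74 ± 4.88 RPKM in the calcium-high and 19.7 ± 7.16 RPKM in the calcium-low libraries (SD, n = 7 each), lower in all 7 pairs, and was not called over all libraries (limma adjusted p = 0.293 without and 0.0514 with the block). It was called lower in replicates 4 to 7 alone (limma adjusted p = 0.0234), against 1.78% of all tested labels. Rora, a nuclear receptor also found in other cells, was the list's call with the block, at 1.85 ± 0.36 RPKM in the calcium-high and 1.08 ± 0.354 RPKM in the calcium-low libraries (limma adjusted p = 0.0476). Rora was also called higher in replicates 4 to 7 alone (limma adjusted p = 0.00932), against 6.36%. Of the labels below the filter, which were not tested, some lay higher and some lower in calcium-high libraries. Klrb1c was at 0.461 to 1.70 RPKM in calcium-high and 0 to 0.490 RPKM in calcium-low libraries. Thy1 was at 0.310 to 1.05 RPKM in calcium-high and 0.696 to 1.49 RPKM in calcium-low libraries. Lck_1 was at 2.14 ± 0.491 RPKM in the calcium-high and 2.34 ± 0.723 RPKM in the calcium-low libraries.

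Transcripts of RUNX partner proteins lay on both sides of equal levels, 8 higher and 13 lower in calcium-high libraries. Of 24 labels of partners, co-regulators and modifiers 21 were tested and 0 were called with or without the block. In replicates 4 to 7 alone 2 of the 21 were called higher, Tle2 and Aes, against 6.36% of all tested labels. The median log2 difference over all libraries was -0.05, against -0.03 over all tested labels. The most abundant were the arginine methyltransferase Prmt1, which methylates RUNX1, the Groucho-related Aes and the corepressor Cbfa2t3. Prmt1 was at 25.6 ± 5.08 RPKM in the calcium-high and 27.3 ± 3.39 RPKM in the calcium-low libraries, Aes at 27.1 ± 9.57 RPKM in the calcium-high and 25.1 ± 4.40 RPKM in the calcium-low libraries, and Cbfa2t3 at 17.5 ± 4.48 RPKM in the calcium-high and 17.1 ± 4.33 RPKM in the calcium-low libraries (SD, n = 7 each). Runx1t1, the gene joined to RUNX1 in a leukaemia translocation, was below the filter at a mean of 0.260 RPKM.

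Of 17 tested labels of transcription factors that act with RUNX1 in stem and progenitor cells, 0 were called with or without the block, and their median was 0.05. Lmo2, a bridging factor of the stem cell complex, was the most abundant at 169 ± 19.9 RPKM in the calcium-high and 163 ± 16.6 RPKM in the calcium-low libraries. Myb was lower in all 7 pairs, at 49.9 ± 11.8 RPKM in the calcium-high and 59.5 ± 11.001 RPKM in the calcium-low libraries, and was not called (limma adjusted p = 0.338 with the block). Etv6, a repressor of the ETS family, was at 45.7 ± 8.27 RPKM in the calcium-high and 49.9 ± 7.25 RPKM in the calcium-low libraries. In replicates 4 to 7 alone 4 of the 17 were called higher and 1 lower, against 6.36% and 1.78% of all tested labels.

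Among RUNX target genes of megakaryocytes, 10 labels were tested and 1 was called lower with the block, against 0.433% of all tested labels. Cdk6, a cell cycle kinase that RUNX1 represses in megakaryocytes, fell to 25.3 ± 9.86 RPKM in calcium-high libraries, against 41.2 ± 4.36 RPKM in calcium-low libraries (SD, n = 7 each; limma adjusted p = 0.0337 with the block and 0.150 without), lower in all 7 pairs. Nfe2, a megakaryocyte and erythroid factor, was at 24.9 ± 4.63 RPKM in the calcium-high and 22.6 ± 2.77 RPKM in the calcium-low libraries. The list median was 0.10. In replicates 4 to 7 alone 5 of the 10 were called higher and 1 lower, against the same 6.36% and 1.78%.

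Lymphoid targets were low, and the most abundant myeloid targets were at several RPKM. Of 13 labels of myeloid targets 8 were tested and 0 were called, with a median of -0.14. Spi1, which encodes PU.1, was at 6.98 ± 2.40 RPKM in the calcium-high and 8.32 ± 2.32 RPKM in the calcium-low libraries, and Csf2rb, the shared beta chain of cytokine receptors, at 3.24 ± 1.13 RPKM in the calcium-high and 3.63 ± 1.65 RPKM in the calcium-low libraries. Mpo_1 (myeloperoxidase, a label with a copy suffix) was at 12.1 ± 18.7 RPKM in the calcium-high and 7.64 ± 9.19 RPKM in the calcium-low libraries. Of 22 labels of lymphoid targets, many of them targets of Runx3 in T cells, 2 passed the filter and 0 were called. Itgal, an integrin chain and a Runx3 target, was at 1.74 ± 1.06 RPKM in the calcium-high and 2.501 ± 1.47 RPKM in the calcium-low libraries (limma adjusted p = 0.293 with the block). Satb1, a chromatin organizer, was at 0.772 ± 0.0967 RPKM in the calcium-high and 1.62 ± 0.670 RPKM in the calcium-low libraries (limma adjusted p = 0.124 with the block). In replicates 4 to 7 alone Satb1 was called lower (limma adjusted p = 0.00177), 1 of the 2 lymphoid labels. Of the 8 myeloid labels 1 was called lower there, against 1.78% of all tested labels. The cytotoxic T cell targets Cd8a and Prf1 stayed at or below 0.205 RPKM in every library.

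**Figure D5:**
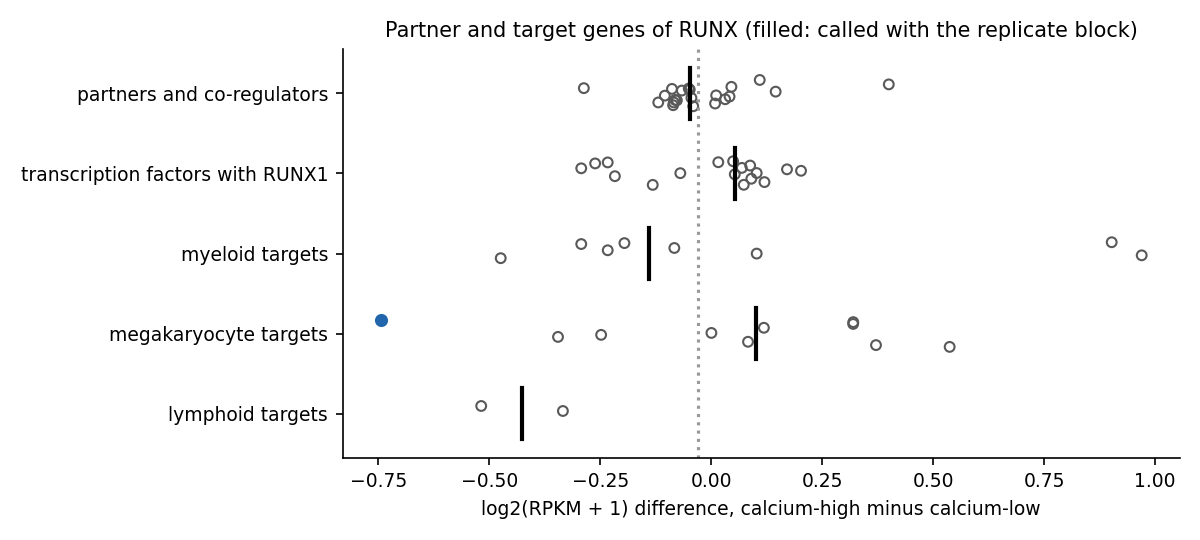
Difference in log2(RPKM + 1), calcium-high minus calcium-low, of each tested label in the 5 partner and target lists (circles), with the list median (bar) and the median of all tested labels (dotted line, -0.03). The filled point is Cdk6, the 1 label of these lists called by limma with the replicate block.

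The other marker lists held no call without the block. With it, Procr, Slamf1 and Fgd5 of the HSC markers and the megakaryocyte marker Vwf were called higher, each in all 7 pairs, as 2.49% of tested labels were. Flt3, listed for dendritic cells and also a gene of multipotent progenitors, was called lower with the block. Of the abundant markers, Lyz2 was at 78.7 ± 44.6 RPKM in the calcium-high and 61.4 ± 8.16 RPKM in the calcium-low libraries and Cd74 at 17.7 ± 9.74 RPKM in the calcium-high and 13.3 ± 7.48 RPKM in the calcium-low libraries. The neutrophil gene S100a8 was at 2.10 ± 1.99 RPKM in the calcium-high and 56.4 ± 148 RPKM in the calcium-low libraries, through calcium-low replicate 3. S100a9, Car1, Hbb-bt, Prtn3, Car2, Gata2, Cd79b and Itga2b had limma adjusted p of 0.195 to 0.976 with the block. Car1 had a log2 difference of 1.46 and was higher in 5 of 7 pairs. In replicates 4 to 7 alone Car1 was called higher (limma adjusted p = 0.000796), 1 of 7 tested erythroid labels, against 6.36% of all. All 7 had a positive log2 difference over all libraries, with a median of 0.23 against -0.03 over all tested labels. What part marker transcripts had in the Runx3 difference was not tested.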

How the data were processed

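RNA of 14 libraries was described by the authors' RPKM values, 1 deposited file per library with 48737 rows, of which 23 held names changed to serial numbers in some files and were left out. Per the submitters' processing notes the builds were GRCm38 and mm10 and a tool was edgeR, with no role given. Not given in the sources used here were aligner, counter and annotation. RPKM was inferred from the values. For 9846 of 9848 tested labels above 0 in all libraries, the deposited RPKM values were whole multiples of a step within 0.02 reads, against 0 of 500 labels jittered by 1%. The steps gave reads per label and relative depth, and 113 of 647 genes with 1 annotated transcript set the scale of the totals and of the model lengths.

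Values were analysed as log2(RPKM + 1), which understates changes of low genes, with limma (version 3.58.1, R 4.3.3, mean-variance trend) over the 9921 labels with a mean of 1 RPKM or more, at a Benjamini-Hochberg adjusted p under 0.05. Simulated data with known changes were used to test the fit. Libraries with the same number were taken as paired. After subtraction of group means, their values correlated over genes at 0.384 to 0.715 in all 7 pairs. Libraries with different numbers were not compared in this way, so these correlations cannot show pairing by number. The pairing is an assumption. The fit without the block is the main one and calls with the block are given beside it. Per-library tests used permutation (Python 3.11.15, scipy 1.17.1, numpy 2.4.6, pandas 2.3.3), and figures matplotlib 3.10.9.

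The members and the gene lists were chosen with earlier results of these data known. Named were all member labels and, of each list, labels called in either fit and the 3 most abundant tested ones, except 1 label that is not reported here. Also named, per member, were the 5 labels with the highest Pearson r. Runx1t1, Cd8a, Prf1, Klrb1c, Thy1 and markers at 0 were named after their values were seen. Alternatives were other scalings, filters and pseudocounts, limma-voom on recovered reads, the replicate block, each set of replicates, summed copy labels and leaving out libraries. The block with median-of-ratios scaling and the order of levels over replicate numbers were chosen after seeing the data.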

Additional observations from a re-analysis of the deposited data

Results flagged for a closer look

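In a group of 7 libraries, a library was flagged when its gap to the nearest other, as a share of the range, exceeded Dixon's 95% critical value. Of 18 groups of member values and shares examined, 2 were flagged; chance flags about 1 in 20. The Runx1 share of summed RUNX RPKM was 64.7% in calcium-high replicate 6, where the other calcium-high libraries were at 54.6% to 58.0%. Cbfb per summed RUNX was 0.975 in calcium-low replicate 3, the library high in neutrophil and erythroid markers, where the other calcium-low libraries were at 0.374 to 0.620. Without that library Cbfb differed by -0.28 on log2(RPKM + 1), against -0.37 with it.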

How the results depend on the processing

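The count of labels called was 0 in the fit without a block. It was 91 with the replicate block (pairing libraries by number), 328 with that block after median-of-ratios scaling, 4 with median-of-ratios and 3 with upper-quartile scaling. It was 1 without the filter, 1 with a mean of 5 RPKM or more, 9 by limma-voom and 808 in replicates 4 to 7. Leaving out 1 library gave 0 to 101 calls (101 without calcium-high replicate 3, 20 without calcium-low replicate 3), and leaving out 1 pair with the block gave 8 without replicate 1, 3 without 2, 302 without 3, 12 without 5, 2 without 6 and 0 without 4 or 7. Of the lists, the block gave 1 call among megakaryocyte targets. Replicates 4 to 7 gave 2 among partners, 5 among transcription factors, 1 among myeloid, 6 among megakaryocyte and 1 among lymphoid targets.

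Member differences moved beyond their spread with the pseudocount (Runx3_1 -0.42 at 5, Runx3_2 -1.13 at 0.1). Runx3_2 was also -0.23 at 5 and -1.07 by limma-voom, against -0.63. Cbfb moved in replicates 1 to 3 (-0.66). After median-of-ratios scaling Runx3_1 was at -0.75, Runx3_2 at -0.64, Runx2 at -0.32, Cbfb at -0.36 and Runx1 at -0.05. After upper-quartile scaling they were at -0.72, -0.63, -0.28, -0.32 and -0.01 in the same order. Leaving out libraries or pairs gave -0.87 to -0.63 for Runx3_1, -0.76 to -0.51 for Runx3_2, -0.42 to -0.28 for Runx2, -0.44 to -0.28 for Cbfb and -0.12 to 0.05 for Runx1. Runx1 minus Cbfb was 0.37 in replicates 4 to 7 and reversed to -0.23 in replicates 1 to 3, and was 0.084 to 0.19 without 1 library. With the mean of each replicate number as the unit in replicates 4 to 7 (pairing by number), Cbfb over Runx2 (0.36), Runx2 over Runx3_1 (0.87) and Runx3_1 over Runx3_2 (0.93) could not pass the threshold. The gain in the Runx1 share was 4.45 percentage points in replicates 1 to 3. The cause of these changes was not tested. A mean of 5 RPKM or more leaves no value for the Runx3 labels. Depth limits Runx3_2 most, at 13 to 446 reads per library.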
